A study of Mus musculus with 6 samples.

Results

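JUNB is a subunit of the AP-1 transcription factor, and its genomic binding was compared between resting mouse macrophages and macrophages exposed to IL-4 for 1 h. The members of the comparison were all peaks of the 2 JUNB ChIP-seq samples, 3940 in control cells and 2325 after IL-4, which made 6265 of the 134964 peaks in the 6 peak lists of the series. A peak was called shared when it overlapped a JUNB peak of the other list by at least 1 bp, and otherwise control-only or IL-4-only. The other 4 samples mapped C/EBPα and IRF8 in the same 2 conditions. All cells were bone marrow-derived macrophages (BMDMs) of wild-type mice aged 8 to 12 weeks, differentiated for 6 days with L929 supernatant as the source of M-CSF. IL-4 was given at 20 ng/ml for 1 h, and the control cells received none. Each condition had 1 JUNB sample, so no value below has a replicate, no spread between samples can be given and no test was made between conditions. Bracketed ranges are 95% Wilson intervals, which cover counting error over peaks only.

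AP-1 factors are dimers of JUN, FOS, ATF and MAF proteins that bind the palindrome TGACTCA or TGAGTCA. In macrophages AP-1 occupies enhancers together with PU.1, C/EBP and IRF factors before any signal arrives, and for that reason these proteins are called lineage-determining transcription factors (LDTFs). IL-4 signals through STAT6, which enters the nucleus and binds a spaced palindrome, TTC and GAA with 4 bases of any kind between them.

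Sequences of peaks that carry the differences between the sets are printed here first, because the sets differed in the letters they held. They were read 5′ to 3′ on the plus strand of the RefSeq mouse genome, GRCm38.p6, the assembly that mm10 names. Capitals mark every AP-1 match (TGACTCA or TGAGTCA) and every STAT6-type match with the 4-base spacer, on either strand. The first 5 stretches are 200 bp around a peak centre: the IL-4-only peak near Arg1 (chr10:24930248-24930447), the control-only peak in Dock10 (chr1:80641966-80642165), the shared peak near Reep3 whose score was lower after IL-4 (chr10:66928184-66928383), and the shared peaks near Casp6 (chr3:129904762-129904961) and Batf3 (chr1:191123824-191124023), whose scores were higher after IL-4.
Arg1: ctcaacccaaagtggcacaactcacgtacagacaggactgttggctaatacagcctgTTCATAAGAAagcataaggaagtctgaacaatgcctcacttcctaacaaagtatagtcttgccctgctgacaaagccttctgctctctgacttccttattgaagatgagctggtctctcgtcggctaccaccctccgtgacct
Dock10: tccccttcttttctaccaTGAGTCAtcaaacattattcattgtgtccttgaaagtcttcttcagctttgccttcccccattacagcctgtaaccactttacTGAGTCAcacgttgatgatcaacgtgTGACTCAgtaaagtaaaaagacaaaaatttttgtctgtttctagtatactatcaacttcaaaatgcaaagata
Reep3: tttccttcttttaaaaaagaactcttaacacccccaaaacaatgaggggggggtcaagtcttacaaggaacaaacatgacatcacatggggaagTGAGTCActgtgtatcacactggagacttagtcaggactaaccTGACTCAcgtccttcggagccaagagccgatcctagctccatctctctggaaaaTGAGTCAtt
Casp6: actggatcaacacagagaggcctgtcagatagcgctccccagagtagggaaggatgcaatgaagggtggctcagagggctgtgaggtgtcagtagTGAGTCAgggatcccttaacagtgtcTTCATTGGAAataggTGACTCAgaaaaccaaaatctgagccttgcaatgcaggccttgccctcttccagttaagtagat
Batf3: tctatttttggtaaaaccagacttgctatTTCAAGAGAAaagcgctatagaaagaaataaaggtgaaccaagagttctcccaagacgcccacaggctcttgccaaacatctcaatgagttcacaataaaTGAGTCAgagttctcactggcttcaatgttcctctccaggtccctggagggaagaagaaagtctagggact
Dock10 and Reep3 held 3 AP-1 matches each and no STAT6-type match, Arg1 held 1 STAT6-type match and no AP-1 match, and Casp6 and Batf3 held both kinds.

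Shorter stretches show the match nearest the peak centre with 12 bp on each side. The IL-4-only peaks of Cdcp1 (chr9:123188440-123188473), Rpl5 (chr5:107923060-107923093) and Slco4a1 (chr2:180437677-180437710) are shown for their STAT6-type match, and those of Mir21 (chr11:86624458-86624488), Btg1 (chr10:96351486-96351516) and Atf1 (chr15:100251531-100251561) for their AP-1 match. The control-only peaks of H2afy3 (chr15:62416892-62416922), Arhgef7 (chr8:11767535-11767565) and Ergic1 (chr17:26605800-26605830) and the shared peaks of Specc1l (chr10:75222652-75222682) and Adam10 (chr9:70731246-70731276), with large score decreases, are shown for their AP-1 match.
Cdcp1: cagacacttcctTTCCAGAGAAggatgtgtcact
Rpl5: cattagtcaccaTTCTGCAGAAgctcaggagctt
Slco4a1: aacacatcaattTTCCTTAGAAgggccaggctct
Mir21: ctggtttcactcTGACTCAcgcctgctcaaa
Btg1: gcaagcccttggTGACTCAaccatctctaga
Atf1: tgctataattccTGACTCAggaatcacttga
H2afy3: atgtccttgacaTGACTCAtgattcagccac
Arhgef7: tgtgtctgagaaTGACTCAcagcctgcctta
Ergic1: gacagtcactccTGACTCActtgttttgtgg
Specc1l: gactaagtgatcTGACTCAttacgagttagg
Adam10: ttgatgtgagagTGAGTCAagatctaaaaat
The same AP-1 letters, TGACTCA, stood in IL-4-only, control-only and shared peaks. TGAGTCA, printed for Adam10 and also in Dock10, Reep3, Casp6 and Batf3, is the same site read on the other strand.

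The JUNB list was shorter after IL-4, and most control peaks had no counterpart in it. Of the 3940 control peaks, 1410 were shared and 2530 were control-only, a share of 64.2%. Of the 2325 IL-4 peaks, 1413 were shared and 912, or 39.2%, were IL-4-only. Both shares depended on the list lengths: when the control list was cut to its 2325 highest-scoring peaks, 47.4% of the IL-4 peaks were shared. Peaks counted as single were rarely just beside a peak of the other list, since 59 of the 2530 control-only peaks (2.33%) and 40 of the 912 IL-4-only peaks (4.39%) had one within 1000 bp.

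The deposited score has no stated unit and was read as −log10 of a p- or q-value, a measure of how far a peak stood above its background that grows with sequencing depth. The depth of either sample is unknown, so list length and scores can move with depth as well as with IL-4, and depth and IL-4 cannot be told apart. Shared peaks had the higher scores, with a median of 10.8 in the control list against 6.79 for control-only peaks. In the IL-4 list the medians were 7.25 for shared and 5.03 for IL-4-only peaks. Shared control peaks were also wider, with a median width of 252 bp against 197 bp.

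Retention followed the control score closely. When the control peaks were ordered by score into 10 groups of 394, the share with an IL-4 peak was 58.4% [53.5 to 63.1] in the second group, with scores of 12.73 to 17.13, and 44.9% [40.1 to 49.9] in the third. It stood at 27.9% [23.7 to 32.5] in both the fifth and the sixth group, which span scores from 6.79 to 9.02. The decline was therefore steep among strong peaks and shallow in the middle of the list.

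**Figure D1:**
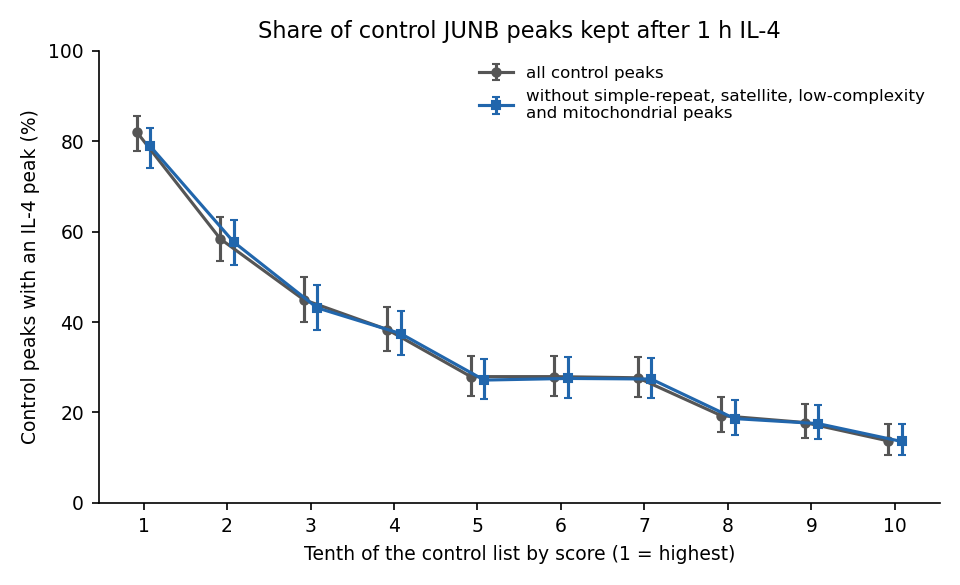
Share of control JUNB peaks with an overlapping IL-4 peak (%, y axis) in 10 score groups of 394 peaks (x axis, 1 = highest), for all peaks (grey circles) and without repeat-type peaks (blue squares), with 95% Wilson intervals. The share is 82.0% (all) and 78.9% (without repeats) in group 1 and under 14% in group 10, and the curves lie close together from group 2 onwards.

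The strongest JUNB peaks of both lists lay largely in simple repeats and satellites, and these behaved differently from the rest. HOMER's detailed annotation placed 194 control peaks and 175 IL-4 peaks in simple repeats, satellites or low-complexity sequence or on the mitochondrial chromosome, called repeat-type peaks below. They were 30 of the 50 highest-scoring control peaks and 40 of the 50 highest-scoring IL-4 peaks. Of the 194, 134 had an IL-4 peak (69.1% [62.3 to 75.2]), against 34.1% [32.6 to 35.6] of the 3746 other control peaks. All 50 strongest control peaks were shared, and 13 of them held an AP-1 match. The highest score of all, 156.47 in control and 82.48 after IL-4, was at a (CACTC)n repeat beyond 100 kb from Arid1b. The 10 highest control scores comprised 8 such repeats (near Arid1b, Mrgprd, D17Wsu104e, Gm4736, Gm14496, Gm13580, Cr2 and Olfr854), a mitochondrial peak (98.01 and 87.37) and a Pparg peak described below, and 2 of them, at Gm14496 and Cr2, scored higher after IL-4.

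Among these repeats the telomere-type unit, annotated as (TTAGGG)n or (CCCTAA)n, was the most frequent. It carried 67 control peaks, 61 of which were kept, and 1 of which held an AP-1 match. Their median score was 17.2 in control and 16.4 after IL-4. The pentamer repeats (GAATG)n and (CATTC)n carried 23 control peaks with 20 kept and no AP-1 match, and satellites carried 21 with 18 kept and no AP-1 match. Repeats of these kinds are present in many copies of which the assembly holds only a part, and the part that read placement plays in their scores was not tested.

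Transposon-derived peaks resembled peaks outside repeats. The share kept was 33.6% [28.1 to 39.6] of 256 long terminal repeat (LTR) peaks, 32.7% [26.6 to 39.4] of 202 LINE peaks and 32.2% [24.4 to 41.1] of 118 SINE peaks, against 34.2% [32.5 to 35.9] of 3097 peaks in no repeat. Single elements differed more widely, but each held few peaks, and RMER15 and ORR1E lie toward opposite ends. The LTR RMER15 held 17 control peaks, of which 14 had an AP-1 match and 10 were kept, with 1 IL-4-only peak. The LTR ORR1E held 10 control peaks, of which 6 had an AP-1 match and none was kept, and it held 1 IL-4-only peak. Between them lay the LTRs MTD, with 5 of 21 control peaks kept, and ORR1F, with 4 of 19. RMER15 includes one of the strongest control-only peaks, in the first intron of Arhgef7, a guanine nucleotide exchange factor gene, with a score of 25.75.

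At peaks present in both lists, scores were mostly lower after IL-4. The 1406 one-to-one pairs had a median log2 ratio (IL-4 over control) of −0.54, with a middle range (25th to 75th percentile) from −1.12 to 0.03. The score was at least 2-fold lower after IL-4 in 421 pairs (29.9%) and at least 2-fold higher in 42 (2.99%). Dividing each list by its own median score moved the median to −0.20. Shared peaks stood further above the whole-list median in control (10.8 against 7.88) than after IL-4 (7.25 against 6.21), which lowers the scaled ratio. The scaled value therefore cannot show whether the direction holds. Repeat-type pairs had a median of −0.17 (n = 133), and all others −0.60 (n = 1273).

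**Figure D2:**
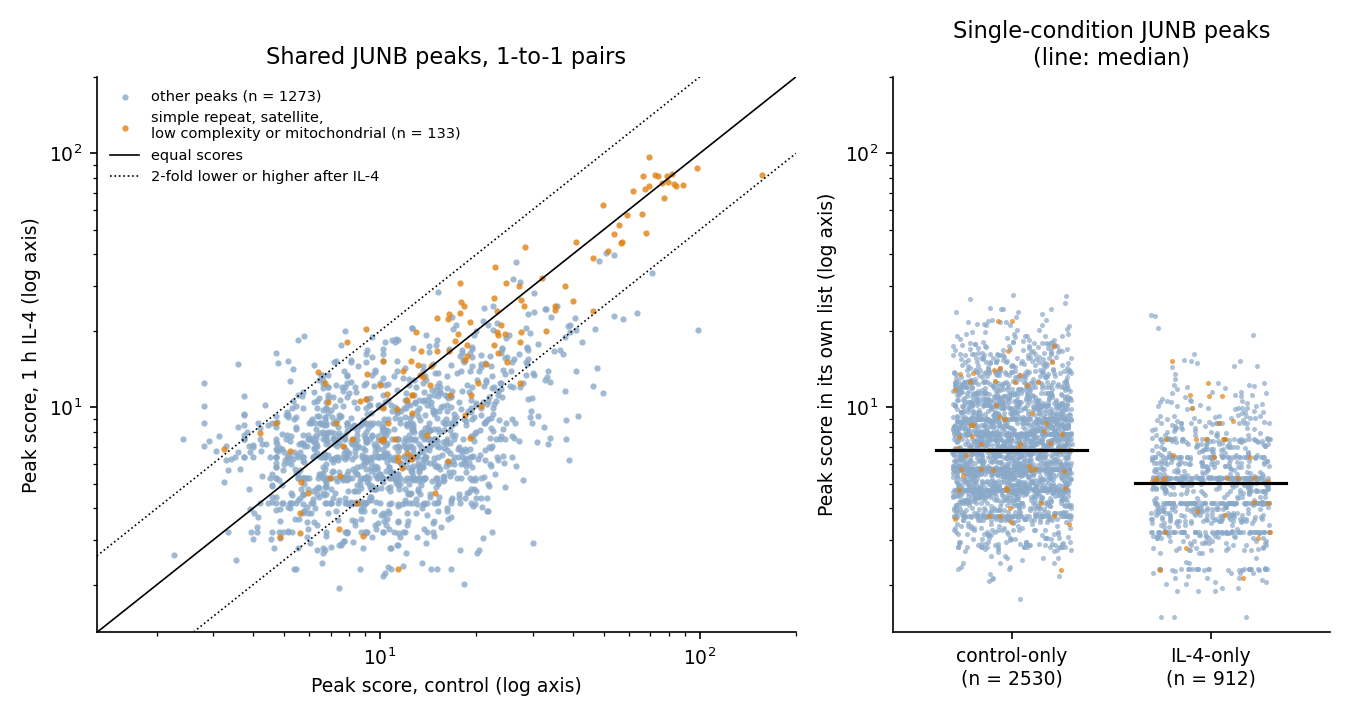
Left, control score (x axis) against IL-4 score (y axis) of 1406 shared JUNB pairs on log axes, with repeat-type peaks in orange, equality as a solid line and 2-fold limits dotted; right, scores of the control-only (n = 2530) and IL-4-only (n = 912) peaks, with the median as a line. Most pairs lie below the solid line, whereas the orange points at the upper end lie along it, and single-condition peaks reach 27.64 in control and 23 after IL-4.

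Outside the repeats, the 10 shared JUNB peaks with the highest control scores all scored lower after IL-4 (these were picked after the repeats had been seen). Their choice by control score fixed this direction. All scored at least 47.69 in control, and no IL-4 peak outside the repeats scored above 40.66. The peak upstream of Fmo9, a flavin monooxygenase gene, scored 70.91 in control and 33.82 after IL-4. The peak near Reep3 scored 63.61 and 23.61, the peak near Gm1631 57.35 and 22.32, and the peak near Macc1, a MET-pathway regulator, 54.1 and 22.91. Smaller differences were seen near Tbc1d14 (53.96 and 39.95), at the RLTR33 element in Aida (50.93 and 40.66) and near 1700080N15Rik (48.27 and 37.71). Fmo9, Reep3 and Gm1631 held an AP-1 match, while Macc1, Tbc1d14, Aida and 1700080N15Rik did not. The intronic peaks of Slc2a9, a urate transporter gene (49.76 and 11.41), and of Depdc5, a gene of the GATOR1 complex that restrains mTORC1 (47.69 and 14.25), also held a match and had log2 ratios of −2.12 and −1.74.

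The highest-scoring peak outside repeats lay in Pparg, which encodes the nuclear receptor PPARγ, and it lay on an exon. It covered all of exon 5 of 8 and scored 98.89 in control and 20.11 after IL-4. A second peak lay on exon 3 (41.64 and 9.28) and another on exon 4 (17.27, control-only). No other gene had more than 1 JUNB control peak annotated in an exon, among 34 genes with 36 exonic peaks. The IRF8 lists had peaks on the same 3 exons, with control scores of 11.12, 6.29 and 34.61 for exons 3, 4 and 5, and after IL-4 also on exon 6, whereas the C/EBPα lists had none on any Pparg exon. The Pparg exon peaks are given as measured, and what part molecules other than chromatin play in them was not tested.

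The largest score decreases among pairs that reached a score of 10 were at peaks with an AP-1 match in 7 of 10 cases. In the second intron of Specc1l, a cytoskeletal cross-linking protein gene, the score was 30.18 in control and 2.93 after IL-4. In an intron of Adam10, the gene of a sheddase of cell-surface proteins, it was 18.29 and 2.01. A peak 45057 bp downstream of the start of Ptgs2, which encodes the prostaglandin synthase COX-2, scored 21.04 and 3.06, and a peak in the first intron of Ston2, an endocytic adaptor gene, 38.89 and 6.19. The other 6, near Vrk2, A330032B11Rik, Diras2, Mir122a, Eid3 and Mir378, had log2 ratios between −2.91 and −2.69. IRF8 scores at Specc1l were 111.18 in control and 151.51 after IL-4, and C/EBPα scores 12.78 and 18.05, so the scores of those factors were not lower there.

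The largest increases started from weak control peaks, which their choice by the ratio of IL-4 to control score favours. The 10 pairs had control scores of 2.82 to 5.78, and 4 held an AP-1 match, against 50.4% of all shared peaks. The peak 29811 bp downstream of the Ifng start, the gene of interferon gamma, scored 2.82 in control and 10.15 after IL-4. The peak in the first intron of Casp6, an apoptotic caspase gene, scored 5.52 and 18.41. At that peak C/EBPα scored 10.13 and 53.93 and IRF8 19.36 and 83.83 in the same order, so all 3 factors scored higher there after IL-4. Near Prkcd, which encodes protein kinase C delta, JUNB scored 5.15 and 15.26 at a peak with a STAT6-type match. Sgk1, a serum- and glucocorticoid-induced kinase gene, had 5.78 and 19.03, and the pairs near Olfr877, Gpr137b-ps, Sh3bp5, Blnk and Aim1 had log2 ratios between 1.40 and 2.15.

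The strongest control-only peaks had scores of 23.71 to 27.64, and 7 of the top 10 held an AP-1 match, against 46.1% of all control-only peaks. The nearest to a start site were those in Xdh, the xanthine dehydrogenase gene (8178 bp), and Arhgef7 (9309 bp), and the others lay in introns of Dock10, Ergic1, Col25a1 and B230120H23Rik, in an intron next to Psma1 and outside genes near Gm14461, H2afy3 and Tmprss13. The Dock10 peak, in a gene for an exchange factor of CDC42 and RAC, had neither a C/EBPα nor an IRF8 peak in either condition. At the Arhgef7 peak C/EBPα scored 127.36 in control and 113.66 after IL-4, and at the B230120H23Rik peak 147.12 and 150.96. Both places thus had a C/EBPα peak after IL-4, in a different sample from the JUNB sample that lacked the peak. Gm14461, Psma1 and Xdh, with scores of 27.64, 24.71 and 23.71, were the names without an AP-1 match.

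The strongest IL-4-only peaks had scores of 14.95 to 23, and 1 of the top 10 held an AP-1 match while 6 held a STAT6-type match of either spacing (TTCNNNGAA, or the same with a spacer of 4 bases). Over all IL-4-only peaks the shares were 32.3% and 27.0%. The Arg1 peak lay 2878 bp upstream of the start of the gene, which occupies chr10:24915207-24927470 and encodes arginase 1, a marker enzyme of alternative activation. JUNB scored 20.44 there after IL-4 with no control peak, C/EBPα 45.42 in control and 97.72 after IL-4, and IRF8 29.46 and 41.89. All 3 factors thus had a higher score at this element after IL-4. The Cdcp1 peak, in an intron of a transmembrane glycoprotein gene, scored 22.92, with C/EBPα absent in control and at 18.52 after IL-4, and IRF8 at 9.39 and 21.69. Rpl5, a ribosomal protein gene, had a JUNB score of 15.26, with C/EBPα at 31.26 and 98.34. Chn2, the gene of a RAC-specific GTPase-activating protein, had 15.39, with IRF8 at 34.19 and 139.23.

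The remaining IL-4-only peaks of the top 10 included 4 with neither an AP-1 nor a STAT6-type match. The strongest, with a score of 23, lay in the first intron of Slco2a1, a prostaglandin transporter gene, on a copy of the small RNA element BC1. The Adcyap1 peak (15.21) lay in a (TTAGGG)n repeat. Rgcc, a cell-cycle regulator gene induced by complement, held a STAT6-type match of the shorter spacing only, with scores of 19.18 for JUNB and 25.06 and 44.12 for C/EBPα. Slco2a1, Adcyap1, Mir3473 (16.21) and Wdr7 (14.95) held neither kind of match.

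Sequence letters set the IL-4-only peaks apart, with fewer AP-1 matches and more STAT6-type matches than in the other sets. Matches were counted on both strands in 200 bp around the centre, without repeat-type peaks, and compared with all 13237130 tiles of 200 bp in the genome. AP-1 (TGACTCA or TGAGTCA) was found in 55.1% [52.4 to 57.8] of shared peaks, 46.7% [44.8 to 48.7] of control-only peaks and 33.4% [30.4 to 36.6] of IL-4-only peaks, against 3.10% of tiles. These 3 intervals did not overlap, but the difference between shared and control-only peaks depended on the choice of peaks. With repeat-type peaks included the shares were 50.4% [47.7 to 53.0] and 46.1% [44.2 to 48.1], and at a score of at least 5 in each list they were 50.7% and 50.4%. IL-4-only peaks had the lowest share under both choices, at 32.3% [29.4 to 35.5] and 39.6%.

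STAT6-type letters were most frequent at IL-4-only peaks, the set with the fewest AP-1 matches. A STAT6-type match of either spacing was found in 27.6% [24.7 to 30.6] of IL-4-only, 14.4% [12.6 to 16.5] of shared and 11.5% [10.3 to 12.9] of control-only peaks, against 12.9% of tiles. For the 4-base spacer alone, which STAT6 prefers, the shares were 17.9% [15.5 to 20.6], 7.92% [6.56 to 9.53] and 5.59% [4.75 to 6.56], against 5.85% of tiles. IL-4-only peaks thus held this letter pattern above the tile share and control-only peaks near it. Only 5.47% of IL-4-only peaks held both an AP-1 match and a 4-base-spacer match, 12.4% held the latter without AP-1, and 54.2% [50.9 to 57.4] held neither.

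AP-1 matches were more frequent in the highest than in the lowest score group of each set, and STAT6-type matches showed no common direction. Among IL-4-only peaks in 4 score groups, AP-1 was found in 41.8% [35.5 to 48.4] of the highest-scoring 220 and 22.8% [17.8 to 28.8] of the lowest-scoring 219. The 4-base-spacer match was found in 23.6% [18.5 to 29.7] and 15.1% [10.9 to 20.4] of the same groups, with overlapping intervals. Among shared peaks ordered by control score it ran the other way, with 5.33% [3.35 to 8.37] in the highest group and 11.0% [8.00 to 14.9] in the lowest. Among control-only peaks AP-1 declined from 57.0% [53.0 to 60.8] to 34.2% [30.6 to 38.03], whereas the 4-base-spacer match stayed between 3.88% and 6.97% in all 4 groups. The difference was also seen among the stronger peaks alone, where 23.6% of IL-4-only peaks scoring 6.37 to 23 held the pattern, against 6.15% [4.51 to 8.33] of control-only peaks scoring 6.79 to 9.13 and 3.88% [2.62 to 5.71] of those scoring 9.16 to 27.64.

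**Figure D3:**
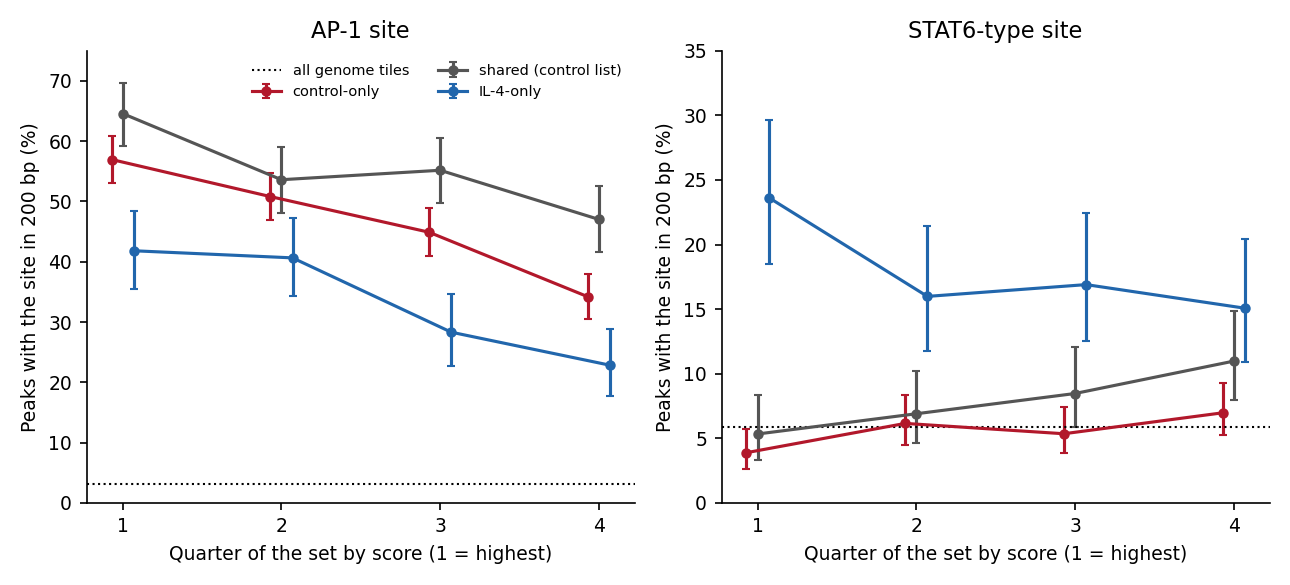
Share of JUNB peaks (%, y axis) with an AP-1 match (left) or a STAT6-type match of the longer spacing (right) in 200 bp, in 4 score groups of each set (x axis, 1 = highest), without repeat-type peaks; bars are 95% Wilson intervals and the dotted line is the share of all genome tiles. IL-4-only peaks (blue) lie lowest on the left (41.8% to 22.8%) and highest on the right (23.6% to 15.1%).

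Among other letter patterns, the C/EBP pattern and an AP-1 and IRF composite were less frequent at IL-4-only than at shared peaks. The ETS pattern AGGAAGT, which PU.1 binds, was found in 25.02% of control-only, 24.0% of shared and 21.7% of IL-4-only peaks, against 4.79% of tiles. The C/EBP pattern TTGCNNAA was found in 17.7% [16.3 to 19.3], 18.0% [16.01 to 20.2] and 13.3% [11.2 to 15.8] (9.38% of tiles), and the RUNX pattern TGTGGTT in 11.1%, 11.8% and 9.81% (4.67%). An IRF pattern, GAAA repeated after a spacer of 2 bases, was near the tile share of 3.33% in all sets, at 3.56%, 3.92% and 4.10%. It can overlap a STAT6-type match. The AP-1 and IRF composite (TGANTCA with GAAA after 4 bases, or GAAA directly before it) was found in 4.55% [3.53 to 5.83] of shared, 2.83% [2.25 to 3.57] of control-only and 2.05% [1.302 to 3.22] of IL-4-only peaks, against 0.175% of tiles. The composite contains TGANTCA, which was itself found in 63.0% of shared, 54.5% of control-only and 41.3% of IL-4-only peaks. Its lower share at IL-4-only peaks is therefore not separate from that of AP-1. A letter match is not evidence of binding by the named factor.

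At shared peaks the score ratio also differed with these letters, but so did the control score. Pairs outside repeats with a 4-base-spacer match had a median log2 ratio of −0.04 (n = 99), and those without it −0.64 (n = 1174). Median scores were 7.93 in control and 8.54 after IL-4 with the match, and 10.57 and 6.88 without it. After each list was divided by its median the values were 0.30 and −0.30, so the sign for pairs with the match depended on the scaling. The score was higher after IL-4 in 48.5% [38.9 to 58.2] of pairs with the match and in 22.9% [20.6 to 25.4] of pairs without it. For AP-1 the values ran the other way, at −0.72 with a match (n = 701) and −0.50 without (n = 572), both below 0. The median control scores were 10.9 and 9.61. A ratio over the control score tends to be lower where that score is higher, and pairs were not compared at like control scores. A score at least 2-fold lower was seen in 35.9% of pairs with an AP-1 match and 27.8% of those without.

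An AP-1 match alone said little about which control peaks were kept once score was considered. Over all control peaks outside repeats, 37.9% [35.7 to 40.1] with a match and 30.3% [28.3 to 32.4] without were kept. Within 4 score groups the intervals overlapped in each, with 60.7% [56.6 to 64.7] and 63.7% [58.7 to 68.4] in the highest group and 19.3% [15.5 to 23.8] and 15.8% [13.0 to 18.9] in the lowest.

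C/EBPα and IRF8 peaks accompanied most JUNB peaks and were most frequent at shared ones. In control cells a C/EBPα peak overlapped 81.0% [78.8 to 83.1] of shared JUNB peaks, 68.9% [67.1 to 70.7] of control-only and 54.4% [51.1 to 57.7] of IL-4-only peaks. For IRF8 the shares were 89.4% [87.6 to 91.0], 76.9% [75.2 to 78.5] and 65.3% [62.1 to 68.4]. Each factor on its own was thus already present before IL-4 at more IL-4-only JUNB peaks than not, while 362 of 877 (41.3% [38.1 to 44.6]) had both factors in both conditions. After IL-4, 66.8% of the control-only JUNB peaks overlapped a C/EBPα peak and 77.1% an IRF8 peak, so the peaks of these factors remained at most of the places that had no JUNB peak in the IL-4 list.

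At IL-4-only JUNB peaks, C/EBPα and IRF8 peaks found in 1 condition were more often those after IL-4. At those peaks, 12.8% [10.7 to 15.1] had C/EBPα only after IL-4 and 3.99% [2.88 to 5.50] only in control. For IRF8, the values were 11.6% [9.67 to 13.9] only after IL-4 and 3.65% [2.60 to 5.11] only in control. Over the whole lists without repeat-type peaks, IRF8 had 12456 peaks only after IL-4 and 7764 only in control. C/EBPα had 5356 and 5172, so for IRF8 the lists as a whole leaned the same way. At control-only JUNB peaks the 2 directions were close to each other for IRF8, with 7.13% [6.18 to 8.21] only after IL-4 and 6.88% [5.95 to 7.95] only in control. For C/EBPα they were 5.22% [4.41 to 6.17] only after IL-4 and 7.29% [6.33 to 8.38] only in control.

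**Figure D4:**
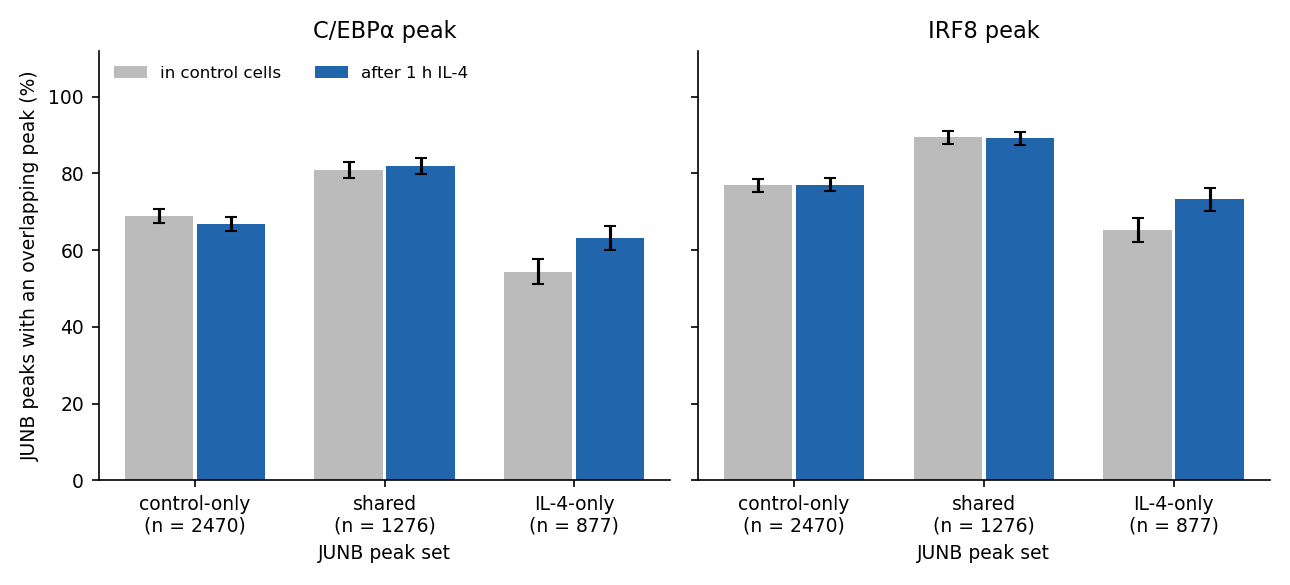
Share of JUNB peaks (%, y axis) of each set (x axis, without repeat-type peaks) that overlapped a C/EBPα (left) or IRF8 (right) peak in control cells (grey) and after 1 h IL-4 (blue), with 95% Wilson intervals. Shared peaks have the tallest bars, and IL-4-only peaks are the set in which the blue bar stands above the grey by more than both intervals, from 54.4% to 63.2% for C/EBPα and from 65.3% to 73.3% for IRF8.

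Occupancy by both factors in control cells went with retention of the JUNB peak at nearly every score. In the highest of 4 score groups, 65.6% [62.0 to 69.0] of 715 peaks with both and 41.5% [27.8 to 56.6] of 41 peaks with neither were kept. In the lowest group the shares were 21.0% [17.7 to 24.7] of 529 and 5.71% [2.92 to 10.9] of 140. The intervals overlapped in the second group, where 35.6% [31.9 to 39.5] of 604 peaks with both and 22 of 88 peaks with neither were kept.

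JUNB lists overlapped less between conditions than the lists of the other factors did. When the 2000 highest-scoring peaks of each list were compared, 46.6% [44.4 to 48.7] of JUNB control peaks had an IL-4 peak, against 79.4% [77.5 to 81.1] for C/EBPα and 83.3% [81.6 to 84.9] for IRF8. Without repeat-type peaks the JUNB value was 43.9% [41.7 to 46.0]. In the JUNB lists 2000 peaks reach down to weak scores, whereas in the longer lists they are the strongest few, so the lists were not compared at like scores.

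By position, promoter peaks had the smallest share kept, and the order of the other classes depended on the repeat-type peaks. HOMER placed 110 control peaks in promoters, of which 25.5% [18.2 to 34.3] were kept. In first introns 29.8% [26.5 to 33.4] of 687 were kept, in later introns 36.5% [33.6 to 39.4] of 1058, and in intergenic sequence beyond 100 kb of a start site 41.8% [37.2 to 46.5] of 428. Of 65 IL-4 promoter peaks 56.9% [44.8 to 68.2] were IL-4-only, against 31.7% [26.3 to 37.5] of 262 IL-4 peaks beyond 100 kb. Distal peaks had the higher scores, with medians of 9.0 beyond 100 kb and 6.64 at promoters in control, and without repeat-type peaks the distal share kept was 35.3% [30.5 to 40.3], below later introns (35.8%) and intergenic peaks within 100 kb (35.6%), with an interval that overlaps that of promoters.

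The median distance was 24372.5 bp for control-only, 30142 bp for shared and 24013.5 bp for IL-4-only peaks. Without repeat-type peaks the medians lay closer together, at 24027.5, 27723.5 and 23711 bp in the same order. Within 1000 bp of a start site lay 4.49% [3.75 to 5.38] of control-only, 2.82% [2.04 to 3.88] of shared and 5.82% [4.45 to 7.57] of IL-4-only peaks, without repeat-type peaks. JUNB binding was thus distal in all sets, with the smallest promoter share at shared peaks.

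Several genes had many single-condition peaks around them, counted by the nearest gene that the files name. In all, 3188 genes were nearest to at least 1 JUNB peak, 115 had 3 or more control-only peaks, and 78 had 2 or more IL-4-only peaks. These numbers depend on list length and on gene spacing: at equal list length they were 22 and 125, and counting only peaks within 100 kb they were 74 and 45. Peaks near a gene are not independent of each other and their target was not tested.

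The control-only peaks of these genes were intergenic at some and intronic at others, as at Fam49b and Lpp, where all 5 were in introns. 1700016G22Rik had 9 control-only, 2 shared and 2 IL-4-only peaks from 12246 to 555800 bp downstream of its start, with control-only scores of 4.53 to 9.86 and an AP-1 match in 5 of the 9. Gm20125 had 7 control-only and 3 shared peaks, of which 2 scored 19.36 and 18.39 in control and 5.80 and 6.83 after IL-4, and the last, with a STAT6-type match and no AP-1 match, 11.23 and 18.53. The neighbouring peaks of one gene thus differed in direction.

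Btg1, which encodes an antiproliferative protein, had 6 control-only, 2 shared and 2 IL-4-only peaks. Its IL-4-only peak at 265472 bp upstream scored 14.5, held the AP-1 match printed above, and lay close to a control-only peak (8.54) at 267804 bp. Pid1, a gene for an adaptor protein linked to insulin signalling, had 6 control-only peaks with scores of 4.92 to 12.61, 4 of them with an AP-1 match, and 1 shared peak with scores of 16.78 and 8.54. Slc7a11, the cystine transporter xCT, had 5 control-only peaks with no AP-1 match and a shared peak with scores of 17.64 and 4.56. The remaining genes with 5 control-only peaks were Camk1d, Fam49b, Lhfpl2, Lpp and Slc44a1, with control-only scores between 2.17 and 13.71, and Lpp, Slc44a1 and Slc7a11 had no IL-4-only peak.

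There were 8 genes with 3 or more IL-4-only peaks. Mir21, a microRNA gene (Mir21a in the annotation) at chr11:86584067-86584158, had 4 IL-4-only peaks with scores of 15.26, 6.37, 4.44 and 4.39 between 40315 bp upstream and 3194 bp downstream, and 1 control-only peak (6.10). The peaks scoring 15.26 and 6.37 held an AP-1 match. BB123696 had 3 IL-4-only peaks (10.6, 7.80 and 4.22) and no other JUNB peak, and 2 of the 3 held a 4-base-spacer match. Htr1f, a serotonin receptor gene, had IL-4-only peaks of 10.29, 8.25 and 4.68 and 1 control-only peak of 7.73. Fam49a had 4 IL-4-only peaks of 1.90 to 3.92, all under the set's median of 5.03. H2afy3, Ado and Mir1907 had 3 IL-4-only peaks each, the highest at 7.07, 9.28 and 8.35, beside 1, 3 and 3 control-only peaks.

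Klf4, a transcription factor gene that IL-4 activates through STAT6, had both single kinds together and no shared peak. Its 3 IL-4-only peaks scored 5.26, 5.18 and 3.19, and its 4 control-only peaks 15.14, 9.90, 7.19 and 6.01. The IL-4-only peak 265936 bp upstream held a 4-base-spacer match and no AP-1 match. A control-only and an IL-4-only peak lay within a few kilobases of each other, at 199733 and 203273 bp upstream.

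**Figure D5:**
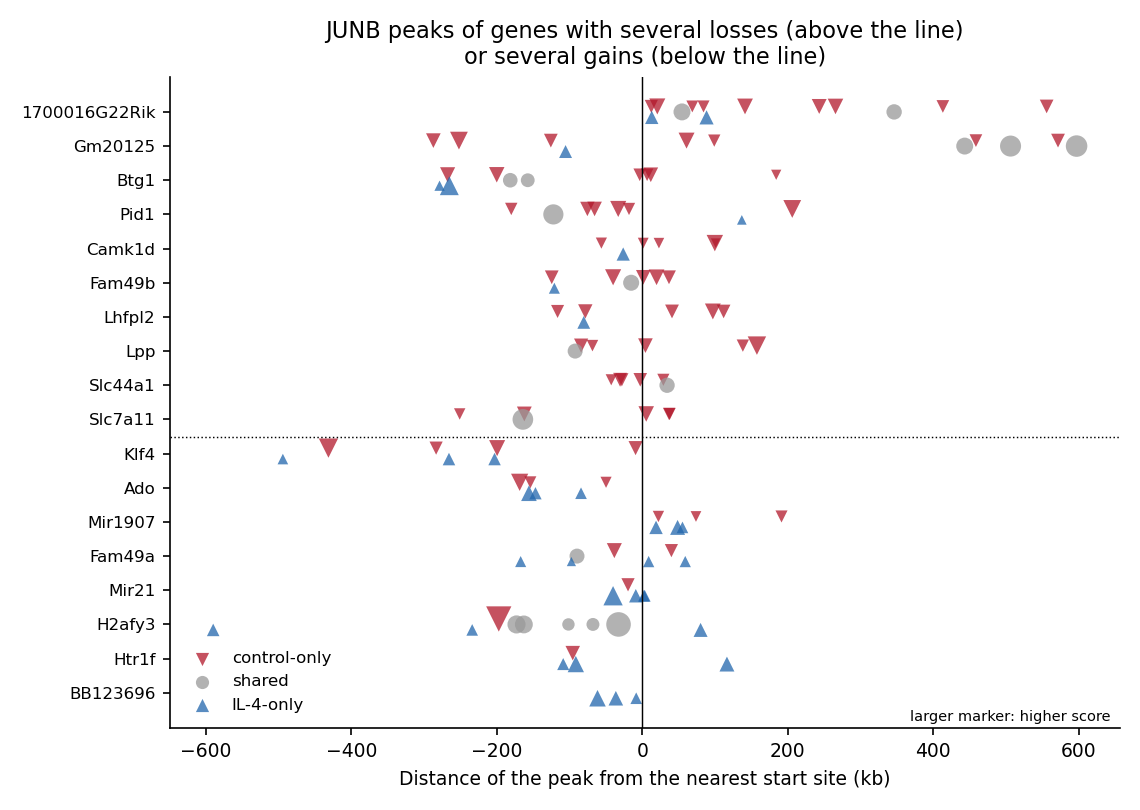
Distance of each JUNB peak from the nearest start site (kb, x axis) for the 10 genes with most control-only peaks (above the dotted line) and the 8 genes with 3 or more IL-4-only peaks (below it); red triangles are control-only, grey circles shared and blue triangles IL-4-only peaks, and larger markers have higher scores. Peaks of both kinds lie side by side at Klf4, Ado and Btg1, and BB123696 has IL-4-only peaks alone.

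Genes of the classical inflammatory response had control-only and IL-4-only peaks about as often as all genes, and their shared peaks mostly scored lower after IL-4. Of 32 such genes 21 had a JUNB peak. They had 32 control peaks, of which 20 were control-only (62.5% [45.3 to 77.1], against 64.2% of all control peaks), and 18 IL-4 peaks, of which 6 were IL-4-only (33.3% [16.3 to 56.3], against 39.2%). The 12 pairs had a median log2 ratio of −1.05, 2 were higher after IL-4 and 6 were at least 2-fold lower, while over all 1406 pairs the median was −0.54 and 29.9% were at least 2-fold lower.

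The cytokines and chemokines included peaks of every kind. The peaks near Il1a and Il1b, the interleukin 1 genes, scored 9.38 and 10.18 in control and 4.32 and 3.22 after IL-4, and the peak near Cxcl2, a neutrophil chemokine gene, 13.54 and 5.98. Cxcl1 had 2 control-only peaks, with scores of 13.9 and 7.19, and Ccl3 and Ccl4 had control-only peaks at their promoters with scores of 8.16 and 5.39. Tnf, the tumour necrosis factor gene, had a peak 1314 bp from its start with an AP-1 match that scored 3.41 in control and 6.26 after IL-4. Il6, the interleukin 6 gene, had an IL-4-only peak of 6.37 at 64764 bp upstream, with a STAT6-type match. Ccl2 had a shared peak (20.02 and 10.21), 2 control-only peaks and an IL-4-only peak, and Ccl7 an IL-4-only peak of 8.46.

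Receptors and regulators of the same response were likewise mixed. Nfkbiz, an atypical inhibitor of NF-κB, had its strongest shared peak at 30.99 in control and 7.31 after IL-4, with an AP-1 match. Tlr4, the endotoxin receptor gene, had a shared peak at 13.24 and 5.58, another at 5.15 and 6.51, and 2 IL-4-only peaks of 5.89 and 2.30. Il10, Nfkbia, Tnfaip3 and Cd86 had control-only peaks with scores between 4.71 and 10.85, and Nfkbia, which encodes an inhibitor of NF-κB, also an IL-4-only peak of 6.83. All 3 Ptgs2 peaks lay 45057 to 64934 bp downstream, and 2 were control-only.

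The 12 genes that the study's text names in connection with repression by IL-4, from its own measurements or a public microarray, were examined as a group. A JUNB peak lay nearest to 11 of them. Of their 8 IL-4 peaks none was IL-4-only [0 to 32.4%], against 39.2% of all IL-4 peaks. Of their 18 control peaks 10 were control-only (55.6% [33.7 to 75.4], against 64.2% of all). The 8 pairs had a median log2 ratio of −1.15, against −0.54 over all 1406 pairs. Fcgr1, an IgG receptor gene, had a shared peak that scored 19.3 in control and 4.76 after IL-4, the lowest ratio of the group. Il18, Nlrp3, Cd14 and Tlr2 had 1 control-only peak each, with scores of 14.98, 7.05, 7.37 and 4.09, and the other genes with peaks were Abca1, Clec4d, Fos, Il1b, Lyz1 and Lyz2. Only 1 of the 8 pairs was higher after IL-4, at Clec4d, a C-type lectin receptor gene, with 5.44 and 5.52. The peaks of Lyz1 and Lyz2, lysozyme genes of nearly the same sequence, could share reads and are uncertain.

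Of the 3 genes that the text names as activated, Klf4 and Edn1 had JUNB peaks. Edn1, the endothelin 1 gene, had shared peaks with scores of 19.24 and 7.03 in control and 9.66 and 4.22 after IL-4, and 1 control-only peak of 8.35. At both genes control-only peaks outnumbered IL-4-only peaks, as they did in the whole lists (2530 and 912). Of the 7 control peaks 5 were control-only (71.4% [35.9 to 91.8], against 64.2% of all). Of the 5 IL-4 peaks 3 were IL-4-only (60% [23.1 to 88.2], against 39.2%).

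Genes of alternative activation showed no uniform direction either. Of 33 genes 18 had a JUNB peak. They had 29 control peaks, 18 of them control-only (62.1% [44.0 to 77.3]), and 20 IL-4 peaks, 9 of them IL-4-only (45.0% [25.8 to 65.8]), which is close to the shares of the whole lists. Clec10a, the macrophage galactose lectin gene, had a shared peak with both AP-1 and STAT6-type matches that scored 11.14 in control and 18.03 after IL-4. Socs1, a feedback inhibitor of cytokine receptors, had a peak at 7.88 and 13.24 and an IL-4-only peak of 5.42, and the Batf3 peak scored 7.77 and 12.01. At Batf3 the C/EBPα score was 52.01 and 100.58 and the IRF8 score 10.21 and 32.87, so all 3 factors scored higher after IL-4 at the sequence printed above.

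The other members of this group pointed both ways. Irf4, a transcription factor gene induced by IL-4, had an IL-4-only peak of 4.22, where C/EBPα was absent in control and scored 38.99 after IL-4 and IRF8 scored 7.13 and 50.92. Mgl2 and Plk2 had IL-4-only peaks of 3.22 and 3.63. At Arg1 a control-only promoter peak (6.87) at 660 bp upstream stood beside the IL-4-only peak at 2878 bp. Egr2, Ch25h and Flt1 had both kinds, and Mrc1, Atp6v0d2, Itgax, Ptgs1 and Mmp12 had control-only peaks alone, with scores of 3.06 to 10.28. In the first intron of Pparg a control-only peak of 5.46 and an IL-4-only peak of 7.07 adjoined each other without overlapping. Myc had a shared peak with scores of 24.96 and 15.74, and Tgm2 one with 8.74 and 5.26.

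Among genes of the AP-1 and MAF families, 9 of 19 had a JUNB peak. Junb itself had a control-only peak of 4.86 at 3029 bp downstream of its start with no AP-1 match, and Jund one of 9.91 at 1079 bp with a CRE match (TGACGTCA). The Jun peak, 53918 bp upstream, scored 9.23 in control and 10.24 after IL-4, the Fos peak 8.65 and 4.22, and the Atf3 peak, with an AP-1 match, 23.35 and 6.23. Fosl2 and Jdp2 had IL-4-only peaks of 4.22 and 4.38. Maf, a transcription factor gene that restrains macrophage self-renewal, had 4 control-only peaks, 1 IL-4-only peak and 2 shared peaks with scores of 14.68 and 12.68 in control and 9.59 and 5.38 after IL-4.

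Lineage transcription factor genes had the only list with a median score ratio above 0 at shared peaks, but it rested on 7 pairs. Of 17 genes 11 had a JUNB peak, and 18 of their 25 control peaks were control-only (72.0% [52.4 to 85.7], against 64.2% of all). The 7 pairs had a median log2 ratio of 0.25, and 4, all at Klf6 and Zeb2, were higher after IL-4, against 26.4% of all pairs. At Klf6, a Krüppel-like factor gene, shared peaks scored 6.65 and 13.38, 10.35 and 12.28, and 3.95 and 3.22, the last lower after IL-4. At Zeb2, a repressor needed for macrophage identity, the shared peaks scored 6.44 and 10.9, and 3.35 and 5.66. Runx1 had shared peaks with 15.41 and 11.54, and 8.97 and 6.79, beside 4 control-only peaks. Irf8, Irf5, Cebpd, Klf2, Runx2 and Bhlhe41 had control-only peaks alone, with scores of 4.8 to 10.11, and Mitf and Tfec had 1 peak of each single kind.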

How the data were processed

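Mouse BMDM ChIP-seq peak lists of JUNB, C/EBPα and IRF8 in control and after 1 h IL-4 (1 sample each) were used as deposited. Per the study's methods and the submitters' processing notes, the authors aligned reads to mm10 with BWA (0.7.10, with SAMtools 0.1.19), called peaks per sample with MACS2 (2.0.10) under a q-value limit, removed blacklisted regions and annotated peaks with HOMER (4.2). The deposited peak score was read as a −log10 p- or q-value, inferred from its values. The deposited distance to the start site is in bp. The control library, read numbers and library kit of each sample are not given in the sources used here. Either of 2 kits was used, so kit and depth cannot be told apart from IL-4. MACS2 scores rise with depth, and a peak just under the limit counts as absent.

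Here, peaks were matched by an overlap of at least 1 bp, paired one-to-one by largest overlap for score ratios, and described with 95% Wilson intervals (scipy 1.17.1, numpy 2.4.6, pandas 2.3.3, matplotlib 3.10.9, Python 3.11.15). Sequences were read from GRCm38.p6, whose chromosomes contain every peak. Overlap and motif counting were tested on simulated data and against bedtools 2.31.1. Named were the 10 highest-scoring peaks of each set, the 10 largest score increases and decreases among pairs with a score of 10 or more in either list, the 10 genes with most control-only peaks (ties kept), genes with 3 or more IL-4-only peaks and members with a peak of 9 gene lists. One named peak is not reported here. The peaks, lists and rules were chosen with earlier results of these data known. The sets without repeat-type peaks, the longer STAT6-type spacing, the Pparg exons and the printed sequences were chosen after values had been seen. No value column was without a sample. Alternatives changed the overlap rule, score limit, list length, scaling, window and distance limit.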

Additional observations from a re-analysis of the deposited data

Results flagged for a closer look

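The number of JUNB peaks after IL-4 was 0.590 times that in control, whereas the number of IRF8 peaks was 1.12 times and the number of C/EBPα peaks 1.01 times the control number. JUNB and IRF8 therefore moved in opposite directions in the 1 pair of samples each factor had, and the difference was not tested.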

How the results depend on the processing

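The share of control peaks that were shared, 35.8%, was 33.4% by centres within 100 bp, 32.1% with a score of at least 5 in each list, 47.2% at equal list length and 33.4% without repeat-type peaks in either list. The share of IL-4 peaks, 60.8%, was 56.5%, 65.9%, 47.4% and 58.4% under the same alternatives. The genes with 3 or more control-only peaks numbered 115, and 74 within 100 kb of the start site and 22 at equal list length. Those with 2 or more IL-4-only peaks numbered 78, and 45 within 100 kb, 30 with a score of at least 5 and 125 at equal list length. Equal list length shortens the control list alone, which removes weak control peaks by construction, and the cause of the other changes was not tested. Of 53 alternatives, 27 stayed within the limits set for them and 26 moved. Among these values only the score ratio could change sign, since the others are shares or counts, and it did not. The score ratio at pairs with a 4-base-spacer match did, with scaling by the list median. At equal list length the order of the gene counts turned, from 115 and 78 to 22 and 125. The median score ratio stayed below 0 under all 4 of its alternatives. Those that rescale by the whole list (its median or its percentiles) are lowered by the unlike make-up of the lists and cannot show the direction. With 100 bp in place of 200 bp around the centre, the 4-base-spacer match was found in 11.0% of IL-4-only, 3.26% of shared and 2.45% of control-only peaks. No paired analysis was possible because each condition had 1 sample and no result comes from a test between samples. A second sample per condition and the read number of each would be needed to separate IL-4 from depth.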

Other observations

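Macrophage surface genes had JUNB peaks at 11 of 16 members, with 9 of 16 control peaks control-only (56.3% [33.2 to 76.9], against 64.2% of all control peaks) and 5 of 12 IL-4 peaks IL-4-only (41.7% [19.3 to 68.0], against 39.2%). Cd36, a scavenger receptor gene, had 3 shared peaks, which scored 18.1, 6.88 and 3.74 in control and 11.63, 9.52 and 9.31 after IL-4, and 2 IL-4-only peaks of 5.73 and 3.38, so neighbouring elements in 1 intron differed in direction. The third shared peak held a STAT6-type match with the 4-base spacer. Trem2, a lipid receptor gene, had an IL-4-only promoter peak of 4.76 with such a match, 11 bp from the start site. Csf1r, the M-CSF receptor gene, had 2 control-only peaks of 10.31 and 6.68, and Cx3cr1, the fractalkine receptor gene, 2 of 10.49 and 9.16. Cd44 and Cd68 had shared peaks with scores of 28.68 and 20.44, and 9.98 and 5.46, Cd9 and Cd44 also had peaks of both single kinds, Csf3r had a shared peak (7.88 and 5.46), and Emr1 and Msr1 had 1 control-only peak each. The Csf2ra peak (69.16 and 74.06) lay in a (TTAGGG)n repeat 102998 bp from the start site.

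Matrix and protease genes had JUNB peaks at 4 of 15 members, and their only IL-4 peak was shared (0 of 1 IL-4-only [0 to 79.3%], against 39.2% of all). Mmp12, Mmp19 and Ctsd had control-only peaks of 10.27, 13.8 and 10.39, and the Spp1 peak, near the osteopontin gene and with an AP-1 match, scored 23.12 in control and 7.51 after IL-4. MAP kinase phosphatase genes had peaks at 3 of 8 members. Dusp6 had control-only peaks of 15.84 and 8.74, Dusp1 had 2 control-only peaks and 1 IL-4-only peak, and Dusp4 had a shared peak with scores of 6.68 and 4.50 and an IL-4-only peak of 4.22.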
